A study of Mus musculus with 18 samples.

Results

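The RNA described here was bound to ribosomes in cardiomyocytes of infarcted mouse hearts, and 3 libraries labelled Salv cKO, a knockout of the Hippo adaptor Salvador, were compared with 3 control libraries. These 6 of the 18 libraries of the series were chosen by their labels for genotype, RNA fraction and surgery, and all 11393 genes with enough counts entered the comparison. Translating ribosome affinity purification (TRAP) pulls down tagged ribosomes, so that the mRNA recovered comes from the cells that carry the tag. Adult mice were operated on at 8 to 10 weeks of age, with the left anterior descending (LAD) coronary artery tied off or with a sham procedure, and RNA was collected 6 weeks later. The 6 libraries of interest are control and Salv cKO TRAP RNA after ligation. For reference there were 3 control and 3 Salv cKO TRAP libraries after sham surgery, and 3 control and 3 Salv cKO libraries of total RNA from whole infarcted hearts. Controls are given as wild type in the design text. The Cre driver, the floxed allele, any inducing agent and the transgene that tags the ribosomes are not named in the sources used here. The labels do not say whether replicate libraries came from separate mice, so each p-value reflects only how far these libraries scatter, which may be technical.

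Salvador, the product of Sav1, is the scaffold that brings together the upstream and downstream kinases of the Hippo pathway. The active cascade phosphorylates the transcriptional coactivators YAP and TAZ, which holds them in the cytoplasm. Without it they can enter the nucleus and act with TEAD factors on genes of growth and division. The adult mammalian heart is known for cardiomyocytes that rarely divide and for poor repair after infarction, and the pathway is one of the known brakes on their renewal.

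The 6 TRAP libraries of infarcted hearts held 4335019 to 7932292 counts, and Salv cKO replicate 3 was the shallowest. Levels are given in CPM, a gene's counts relative to the size of its library after scaling by the trimmed mean of M values (TMM), and each triplet of levels lists replicates 1, 2 and 3. Differences are log2 fold changes, Salv cKO minus control, with their standard error (SE) over 3 libraries against 3. They come from edgeR's quasi-likelihood test across all 12 TRAP libraries with Benjamini-Hochberg adjustment, and a gene passed at an adjusted p below 0.05. Cardiomyocyte markers summed to between 163901 and 179126 CPM in control and between 131380 and 154196 CPM in Salv cKO libraries. On the same scale all genes tested summed to 964150 to 980834 CPM in control and to 875848 to 910839 CPM in Salv cKO libraries. All 12 cardiomyocyte markers passed the filter, while fibroblast markers summed to at most 5789 CPM, endothelial markers to at most 1579 CPM and leukocyte markers to at most 1048 CPM. Mitochondrially encoded transcripts took 0.2034% to 0.3463% of counts. The first principal component of the 6 libraries carried 28.7% of the variance and separated the genotypes.

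Sav1 itself (chromosome 12, 69965012 to 69987002, minus strand, GRCm38) measured 6.63, 5.70 and 4.32 CPM in control and 5.65, 5.73 and 3.48 CPM in Salv cKO TRAP libraries of infarcted hearts. The difference was -0.15 ± 0.47 (adjusted p = 0.986), with an approximate 95% interval from -1.08 to 0.78, and the groups overlapped. This and later intervals were built from the SE with a normal distribution, so they are somewhat too narrow for so few libraries. The Sav1 levels rest on 17 to 51 counts a library. Counts are summed over the whole gene and the deleted exons are not named in the sources used here, so the level does not check the genotype labels, and groups are called by their labels throughout.

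Of 11393 genes tested, 38 passed (0.334%), 21 of them higher in Salv cKO (0.184%) and 17 lower (0.149%). At an unadjusted p below 0.05 there were 838 genes (7.36%), 422 higher (3.70%) and 416 lower (3.65%). For all 38 genes the 3 Salv cKO libraries lay wholly above or below the 3 control libraries, which was so for 14.6% of all genes tested (7.69% above and 6.95% below). The smallest difference that passed was 1.76-fold, and the median SE over genes was 0.30 on the log2 scale, so smaller changes were mostly not detectable with these libraries. That value is not a limit of detection, since larger differences in other genes also did not pass, such as Cngb3 (-1.97 ± 0.44, adjusted p = 0.0522). Ordinary gene symbols belonged to 29 of the 38 (14 higher and 15 lower), and the other 9 carried the symbols of predicted genes or clones, 7 of them annotated pseudogenes. Fits without 1 of the 6 libraries called between 22 and 35 genes, of which 20 to 28 were among the 38 (20 without Salv cKO replicate 1 and 28 without Salv cKO replicate 2), and 16 of the 38 passed in every such fit. Dvl3, Cuedc1, mt-Nd3, Tmprss13, Pygl, Olfml2b and Sorl1 among the higher genes, and Rpl29, Zcchc3 and Fkbp10 among the lower, passed whichever library was left out. The sum of mt-Nd3 with its near-identical copy did not pass, as given further on.

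**Figure D1:**
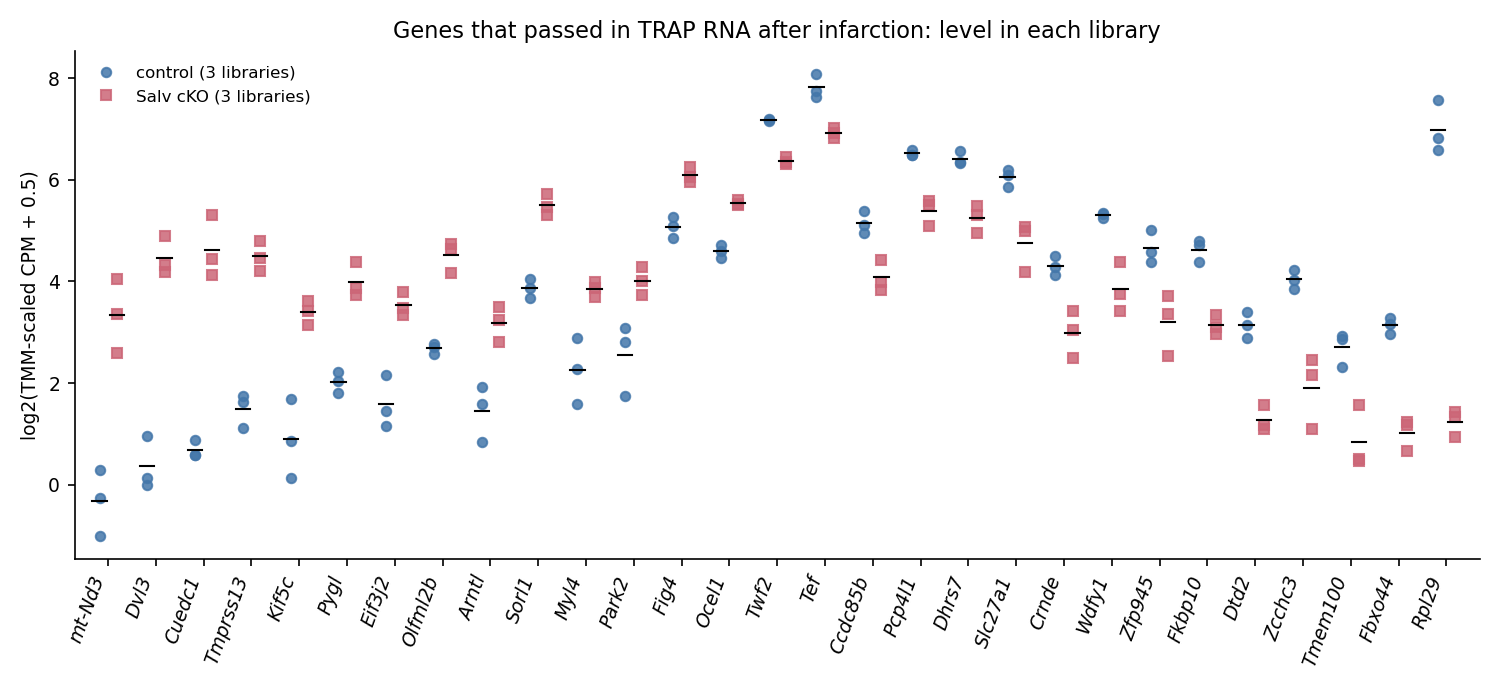
Level of the 29 genes of ordinary symbol that passed, in each TRAP library of infarcted hearts, as log2 of TMM-scaled CPM plus 0.5. Circles are the 3 control libraries, squares the 3 Salv cKO libraries and black lines their means. Genes are ordered by fold change from mt-Nd3 to Rpl29, and no gene shows overlap between the groups.

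Among nuclear genes of ordinary symbol that passed, Dvl3, Cuedc1, Tmprss13 and Kif5c rose most. Dvl3 encodes a dishevelled protein, which relays the signal from Frizzled receptors in the Wnt pathway (chromosome 16, 20516982 to 20534010, plus strand). It measured 1.44, 0.600 and 0.499 CPM in control libraries and 29.0, 17.8 and 19.6 CPM in Salv cKO libraries. Every Salv cKO library was far above every control, by 25.2-fold or 4.66 ± 0.45 on the log2 scale (adjusted p = 4.11e-06). The control values rest on 10, 4 and 3 counts. Cuedc1, which encodes a protein with a ubiquitin-binding CUE domain (chromosome 11, 88098058 to 88194140, plus strand), measured 1.01, 1.35 and 0.998 CPM in control and 39.3, 17.0 and 21.1 CPM in Salv cKO libraries. It rose by 4.51 ± 0.45 (adjusted p = 4.11e-06), and its lowest Salv cKO library stood clear of all controls. Tmprss13, a transmembrane serine protease gene, measured 2.59, 2.85 and 1.66 CPM in control and 27.4, 21.5 and 18 CPM in Salv cKO libraries. The difference was 3.22 ± 0.36 (adjusted p = 1.97e-05), with little spread within either group.

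Kif5c, a kinesin heavy chain that carries cargo along microtubules, measured 2.74, 0.600 and 1.33 CPM in control and 8.31, 11.8 and 10.2 CPM in Salv cKO libraries. It rose by 2.67 ± 0.47 (adjusted p = 0.0071), and its call was lost without control replicate 2 or 3 (adjusted p up to 0.0711). Olfml2b, which encodes a secreted protein with an olfactomedin domain, measured 5.48, 6.0 and 6.32 CPM in control and 26.1, 24.5 and 17.4 CPM in Salv cKO libraries. It rose 3.83-fold, by 1.94 ± 0.30 (adjusted p = 0.00192). Sorl1, a sorting receptor between the Golgi and endosomes (chromosome 9, 41964720 to 42124297, minus strand), measured 12.3, 14.1 and 16.1 CPM in control and 39.3, 52.5 and 43.4 CPM in Salv cKO libraries. It was 3.18-fold higher, by 1.67 ± 0.21 (adjusted p = 0.000107), and the groups were well apart. Fig4, a phosphoinositide phosphatase of the endosomal system, rose by 1.03 ± 0.19 (adjusted p = 0.016), but not without control replicate 1 or 3 or Salv cKO replicate 2 (adjusted p up to 0.126). Ocel1 rose by 0.96 ± 0.18 (adjusted p = 0.016) and lost its call when any 1 library was left out (adjusted p up to 0.116). Ocel1 overlaps Nr2f6, which lies on the opposite strand and measured 0.24 ± 0.26 (adjusted p = 0.942), and whether the counting used strand is not given in the sources used here.

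Dvl3 was the only 1 of 23 tested Wnt pathway genes to pass. Of the 23, 17 had a positive fold change, against 50.5% of all genes tested, and the median was 0.16. The Frizzled receptor gene Fzd4 measured 3.60, 3.30 and 2.16 CPM in control and 3.66, 7.59 and 5.52 CPM in Salv cKO libraries (0.87 ± 0.40, adjusted p = 0.653). The paralog Dvl1 measured 0.23 ± 0.17 (adjusted p = 0.871). Neither passed, while Dvl3 differed between the genotypes in all 6 libraries.

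Pygl and Park2 rose and Slc27a1 fell. Pygl, the liver form of glycogen phosphorylase, which releases glucose units from glycogen (chromosome 12, 70190811 to 70231488, minus strand), measured 3.60, 3.0 and 4.16 CPM in control and 12.7, 20.4 and 14.1 CPM in Salv cKO libraries. It was 4.38-fold higher, by 2.13 ± 0.31 (adjusted p = 0.000797). Pygl lies 0.204 Mb from Sav1, the gene targeted in these mice. Park2, the gene of Parkin, a ubiquitin ligase that marks damaged mitochondria for removal (chromosome 17, 10840384 to 12063361, plus strand), measured 6.49, 2.85 and 7.98 CPM in control and 15.6, 12.9 and 19.0 CPM in Salv cKO libraries. All 3 Salv cKO values lay above the highest control, and the rise was 1.45 ± 0.30 (adjusted p = 0.0342). That call did not survive leaving out control replicate 1 or 2 or Salv cKO replicate 1 or 3 (adjusted p up to 0.230). It was also lost with the 2 groups fitted alone (adjusted p = 0.0537), at equal depth (0.107) and with trends on transcript length and GC content removed (0.0598). Slc27a1, a fatty acid transporter of the plasma membrane (chromosome 8, 71568882 to 71587302), measured 67.3, 72.8 and 57.7 CPM in control and 33.2, 31.3 and 17.8 CPM in Salv cKO libraries. It fell by 1.26 ± 0.25 on the log2 scale (adjusted p = 0.0293), a call that was lost without any 1 of the 6 libraries (adjusted p up to 0.171).

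The lists around these genes had medians close to 0. Of 31 glycolysis and glycogen genes Pygl alone passed, 18 had a positive fold change and the median was 0.10. The hexokinase gene Hk1 measured 168, 156 and 164 CPM in control and 253, 205 and 210 CPM in Salv cKO libraries, without overlap, yet did not pass (0.45 ± 0.16, adjusted p = 0.476). Of 28 mitophagy and autophagy genes Park2 alone passed, and none did in the 3 settings that lost it, and 11 had a positive fold change. The median of that list was -0.03, and Vcp, an ATPase that extracts ubiquitin-tagged proteins, measured 0.59 ± 0.18 (adjusted p = 0.346). Of 36 genes of fatty acid uptake and oxidation Slc27a1 alone passed, with 15 positive and a median of -0.04. Their remaining members were thus spread on both sides of 0.

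The circadian clock list held 1 gene that rose and 1 that fell. In the clock the BMAL1 protein, encoded by Arntl, binds E-boxes with its partner CLOCK and drives the genes of its own repressors, of the Per and Cry families, and of output factors such as Dbp, Tef and Hlf. Arntl (chromosome 7, 113207465 to 113314126, plus strand) measured 1.3, 3.30 and 2.49 CPM in control and 10.9, 6.50 and 9.0 CPM in Salv cKO libraries. It rose by 1.89 ± 0.40 (adjusted p = 0.0361), with every Salv cKO library above the controls. Tef (chromosome 15, 81802421 to 81826863, plus strand) measured 270, 197 and 213 CPM in control and 121, 129 and 113 CPM in Salv cKO libraries. It fell by 0.91 ± 0.18 (adjusted p = 0.0245), or 1.88-fold.

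The promoters of this pair are shown because they carry the elements through which clock factors are known to act. Each line gives 250 bases before to 50 after a start site in RefSeq (GRCm38.p6), and capitals mark CACGTG, the E-box letters, in Tef and AGGTCA, the element bound by ROR and REV-ERB receptors, in Arntl. They lie at chr15:81802423-81802722 and chr7:113207261-113207560, both on the plus strand. RefSeq gave 2 start sites for each of these genes, and the site shown was picked by its number of matches to the marked letters.
Tef: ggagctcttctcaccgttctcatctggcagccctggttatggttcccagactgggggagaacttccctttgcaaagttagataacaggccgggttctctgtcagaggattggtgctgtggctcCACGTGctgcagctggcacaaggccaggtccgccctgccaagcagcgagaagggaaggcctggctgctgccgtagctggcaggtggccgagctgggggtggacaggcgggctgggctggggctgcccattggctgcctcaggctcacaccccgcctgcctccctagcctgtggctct
Arntl: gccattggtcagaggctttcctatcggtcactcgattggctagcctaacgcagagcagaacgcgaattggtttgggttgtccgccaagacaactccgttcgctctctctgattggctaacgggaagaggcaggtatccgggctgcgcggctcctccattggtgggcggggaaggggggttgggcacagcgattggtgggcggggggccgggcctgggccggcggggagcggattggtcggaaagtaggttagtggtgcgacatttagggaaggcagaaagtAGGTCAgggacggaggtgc
In these windows, searched on both strands, the E-box begins 127 bases before the Tef start site and the receptor element 32 bases after the Arntl start site. Among all 32851 promoters in the table, 7.2% hold the E-box and 16.3% the receptor element. RefSeq promoters were matched for 21 of the 38 passing genes. Of their 29 promoters, 5 held the E-box and 7 the receptor element. GGAATG, the core letters of a TEAD site, stood in 4 of the 29 promoters (Cuedc1, Fbxo44, Slc27a1 and Zcchc3) and in 14.7% of all promoters. A match describes the letters and no binding was measured.

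Of 17 clock genes tested 5 had a positive fold change, and the list's median was -0.34. At an unadjusted p below 0.05, 2 were higher and 5 lower, against 3.70% and 3.65% of all genes. Per1, a repressor of the clock, measured 30.6, 29.3 and 27.3 CPM in control and 10.7, 20.9 and 6.55 CPM in Salv cKO libraries (-1.18 ± 0.32, adjusted p = 0.205). Dbp, an output factor of the Tef family, measured 8.36, 7.35 and 8.81 CPM in control and 0.997, 3.10 and 2.86 CPM in Salv cKO libraries (-1.85 ± 0.53, adjusted p = 0.247). Nfil3, which competes with those factors for their sites, measured 9.08, 9.16 and 6.65 CPM in control and 28.1, 12.9 and 18.8 CPM in Salv cKO libraries (1.27 ± 0.31, adjusted p = 0.102). The groups did not overlap for Per1, Dbp or Nfil3, nor for Hlf (-1.31 ± 0.35, adjusted p = 0.175) and Cry2 (-0.84 ± 0.24, adjusted p = 0.247), but these 5 did not pass. DESeq2 called Nfil3 as well (adjusted p = 0.0493), and edgeR without a filter called Per1, Dbp, Nfil3 and Hlf (adjusted p of 0.00524, 0.0321, 0.0102 and 0.0338). Neither Arntl nor Tef passed without control replicate 1 or 3 or Salv cKO replicate 1 or 3 (highest adjusted p over the 6 libraries left out 0.266 and 0.206). Arntl did not pass without control replicate 2 either, nor Tef without Salv cKO replicate 2. The time of day of tissue collection is not given in the sources used here, and its part in these values was not tested.

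**Figure D2:**
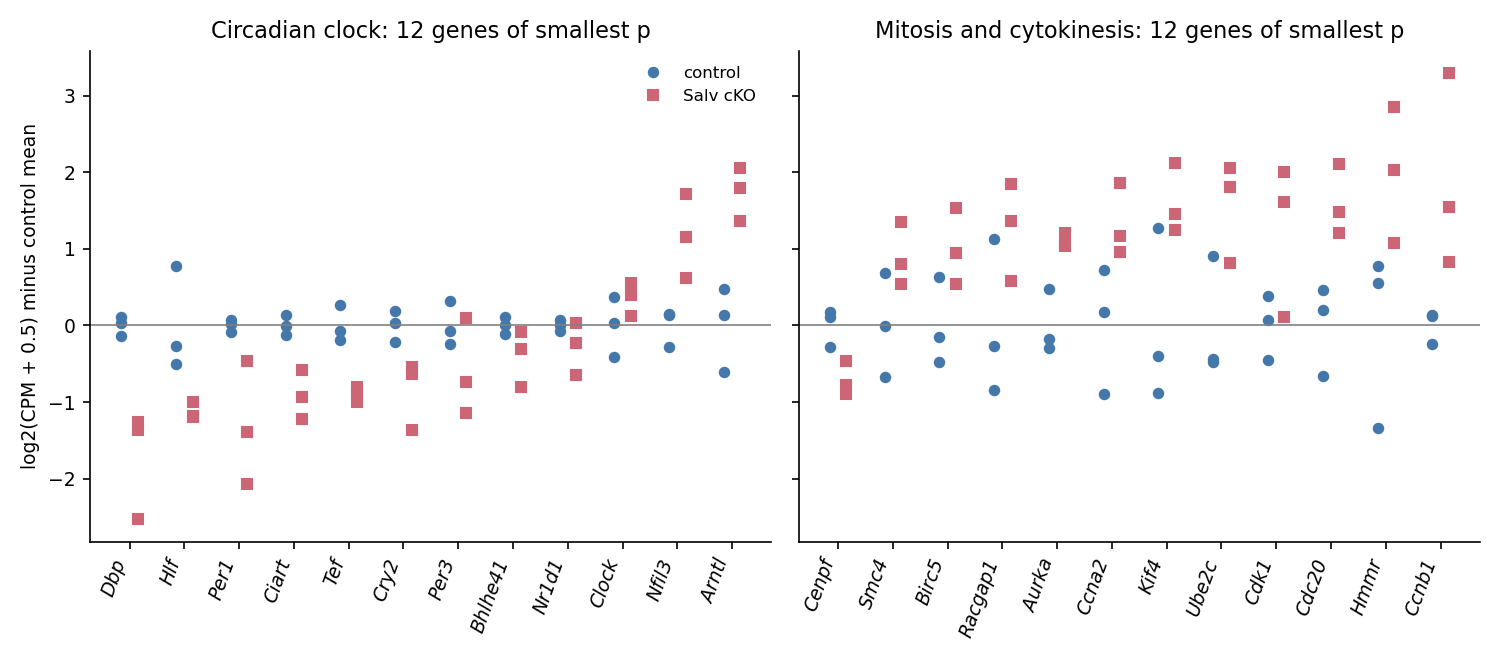
Level of each TRAP library of infarcted hearts minus the control mean, in log2 of CPM plus 0.5, for the 12 genes of smallest p in the circadian clock list (left) and in the mitosis and cytokinesis list (right). Circles are control and squares Salv cKO libraries, 3 of each. Arntl and Nfil3 lie above and Dbp, Hlf, Per1, Tef and Cry2 below their controls, and the mitotic genes shown, picked by p, scatter widely.

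No gene of cell division passed in the comparison described above or in DESeq2. Of 42 genes of mitosis and cytokinesis only 19 had enough counts to be tested, and a gene could pass that filter through the group in which it was high, so no count or median over these 19 is given. All 42 had at least 1 count and were read from the fit without a filter, a reading chosen after the data were seen. There 34 had a positive fold change, against 48.8% of all genes with a count, 15 were higher and 1 lower at an unadjusted p below 0.05, against 2.88% and 3.01%, and the median was 1.13. That fit called Ccnb1 (4.22 ± 1.11), Hmmr (2.33 ± 0.61) and Smc4 (0.85 ± 0.23), at adjusted p of 0.0367, 0.0341 and 0.044, against 0.475% of genes. Summed over all 42 genes, the libraries held 85.5, 107 and 133 CPM in control and 166, 129 and 185 CPM in Salv cKO, so the groups overlapped. Hmmr, a spindle-associated hyaluronan receptor, measured 0, 1.35 and 1.66 CPM in control and 4.65, 2.17 and 8.59 CPM in Salv cKO libraries (2.34 ± 0.71, adjusted p = 0.304). Ube2c, the ubiquitin-conjugating enzyme of the anaphase-promoting complex, measured 1.15, 1.20 and 3.82 CPM in control and 9.08, 3.56 and 7.57 CPM in Salv cKO libraries (1.72 ± 0.54, adjusted p = 0.346). Cenpf, a kinetochore protein gene, went the other way with 17.9, 18.6 and 13.5 CPM in control and 9.42, 11.8 and 8.59 CPM in Salv cKO libraries (-0.74 ± 0.34, adjusted p = 0.653). Ube2c overlapped between the groups and Cenpf did not.

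Of 33 replication genes 26 were tested. Over all 33, in the fit without a filter, 28 had a positive fold change, against 48.8% of all genes with a count, and the median was 0.63. At an unadjusted p below 0.05, 7 were higher and 0 lower, against 2.88% and 3.01% of those genes. The sum over the 33 was 499, 490 and 622 CPM in control and 610.5, 582 and 674 CPM in Salv cKO libraries, again with overlap. E2f1, a transcription factor that switches on genes of S phase, measured 2.88, 1.35 and 2.0 CPM in control and 6.20, 5.88 and 12.3 CPM in Salv cKO libraries (1.94 ± 0.57, adjusted p = 0.284), and was called without a filter (adjusted p = 0.0192) and with the 2 groups fitted alone (0.0497). Mcm6, a subunit of the replicative helicase, measured 1.44, 3.90 and 4.66 CPM in control and 6.43, 7.90 and 14.3 CPM in Salv cKO libraries (1.51 ± 0.47, adjusted p = 0.356). Mcm2 and Mcm7, of the same helicase, measured 1.42 ± 0.51 and 1.27 ± 0.45 (adjusted p = 0.482 each). The groups did not overlap for any of these 4 genes, at levels of a few CPM, and in each of the 3 genes besides Mcm2 Salv cKO replicate 3 was the highest library. Of 14 inhibitors of the cycle 9 had a positive fold change in the fit without a filter (median 0.40). Leukocyte markers summed to 760 to 1048 CPM in control and 575 to 896 CPM in Salv cKO libraries, and 6 of 26 tested had a positive fold change. Their median was -0.40, -0.65 without Salv cKO replicate 3 and -0.25 without Salv cKO replicate 1. S100a8, 1 marker of this list, was highest in Salv cKO replicate 3, at 31.5 CPM against 3.15 to 8.52 CPM in the other 5 libraries. Against that, 20 of the 26 leukocyte markers had a negative fold change, and their sum in that library, 896 CPM, lay within the control range. The part of such cells in the division genes was not tested, and in bulk RNA fewer cells of a type and less RNA per cell cannot be told apart.

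No gene of the Hippo pathway, and no member of the YAP target list, passed in edgeR or in DESeq2. At an unadjusted p below 0.05 there were 1 of 21 core and upstream genes, 1 of 7 genes of YAP, TAZ and TEAD, and 2 of 21 YAP target genes, each of them higher, against 3.70% of all genes tested. For the core and upstream genes that share is near the background. Yap1 measured 44.3, 34.2 and 28.6 CPM in control and 48.2, 31.7 and 29.3 CPM in Salv cKO libraries. The difference was 0.03 ± 0.25, with a 95% interval from -0.45 to 0.52. Wwtr1, the gene of TAZ, measured 17.3, 27.6 and 15.3 CPM in control and 24.3, 22.8 and 24.6 CPM in Salv cKO libraries (0.25 ± 0.25, interval -0.23 to 0.73). Both genes overlapped between the groups, and neither interval reached a doubling of the level (a log2 value of 1). Among 21 core and upstream genes 13 had a positive fold change (median 0.08), and among 21 YAP target genes 12 did (median 0.06, and -0.08 without Salv cKO replicate 1). Tead1, the DNA-binding partner of YAP, measured 49.6, 41.9 and 49.7 CPM in control and 63.7, 84.7 and 71.2 CPM in Salv cKO libraries. Its groups did not overlap, but it did not pass (0.64 ± 0.17, adjusted p = 0.187). Amotl2, an angiomotin that binds YAP, measured 21.9, 16.1 and 25.6 CPM in control and 57.7, 23.8 and 23.3 CPM in Salv cKO libraries (0.74 ± 0.32, adjusted p = 0.619), so its mean rested on Salv cKO replicate 1. Ctgf, a classical YAP target, showed the same pattern with 81.4, 60.8 and 91.8 CPM in control and 386, 53.9 and 62.0 CPM in Salv cKO libraries (1.11 ± 0.87, adjusted p = 0.895).

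Myl4, the essential myosin light chain of atrium and of the embryonic heart, was the only gene of the cardiac stress list to pass. It measured 6.92, 4.35 and 2.49 CPM in control and 15.4, 12.4 and 14.1 CPM in Salv cKO libraries, a rise of 1.59 ± 0.33 (adjusted p = 0.0317). Its call was lost without control replicate 2 or 3 or any 1 Salv cKO library (adjusted p up to 0.180). The natriuretic peptide gene Nppa, secreted by strained cardiomyocytes, measured 418, 416 and 680 CPM in control and 551, 199 and 348 CPM in Salv cKO libraries (-0.46 ± 0.79, adjusted p = 0.968). Nppb measured 222, 192 and 226 CPM in control and 385, 92.3 and 119 CPM in Salv cKO libraries (-0.10 ± 0.70, adjusted p = 0.997), and Salv cKO replicate 1 was the highest and replicates 2 and 3 the lowest of the 6. For Nppb the approximate 95% interval, built in the same way as for Sav1, ran from -1.48 to 1.27. Myh6, the main myosin heavy chain of the adult mouse ventricle, was 16363 to 20990 CPM in 5 libraries and 6254 CPM in Salv cKO replicate 3 (-0.39 ± 0.50, adjusted p = 0.951). Myh7, the fetal isoform, measured 1330, 957 and 1594 CPM in control and 1049, 740 and 568 CPM in Salv cKO libraries (-0.72 ± 0.44, adjusted p = 0.839). These stress genes thus varied within the groups about as much as between them.

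Sarcomere genes leaned lower without a call: 10 of 30 had a positive fold change (median -0.14), against 50.5% of all genes tested. At an unadjusted p below 0.05, 2 were higher and 3 lower, against 3.70% and 3.65% of all genes, and DESeq2 called Tcap. The median was -0.08 without Salv cKO replicate 3 and -0.11 with trends on transcript length and GC content removed. The list summed to 161024 to 168501 CPM in control and 124745 to 145751 CPM in Salv cKO libraries, with no overlap. On this scale the sum of all genes tested did not overlap either, at 964150 to 980834 CPM in control and 875848 to 910839 CPM in Salv cKO libraries. The Z-disc protein gene Tcap measured 10813, 11742 and 10611 CPM in control and 3563, 6921 and 5981 CPM in Salv cKO libraries (-1.01 ± 0.27, adjusted p = 0.230). Titin, Ttn, went the other way at 0.49 ± 0.21 (adjusted p = 0.617). Short, GC-rich transcripts leaned lower across the whole comparison: fold changes had a Spearman correlation of 0.18 with transcript length and -0.27 with GC content over 11332 genes, which share these libraries, and when genes were ranked by GC into 4 equal bins the median was -0.12 in the richest and 0.13 in the poorest.

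Nuclear genes of the respiratory chain showed the same lean, again with 0 passing in the comparison described above. DESeq2 called Ndufa12 of complex I (adjusted p = 0.00805), which is treated with its copy further on. In complex I 5 of 37 genes had a positive fold change, against 50.5% of all genes tested. At an unadjusted p below 0.05, 7 were lower and 0 higher, against 3.65% and 3.70% of all genes. For 16 of the 37 the Salv cKO libraries lay wholly below control, against 6.95% of all genes. The median was -0.17, with trends on length and GC removed it was -0.15, and without Salv cKO replicate 2 it was -0.27. The summed level was 50181 to 51434 CPM in control and 39463 to 45755 CPM in Salv cKO libraries, on a scale where the sum of all genes tested was also lower in Salv cKO. Ndufa3, an accessory subunit, was 1905 to 1997 CPM in control and 1073 to 1432 CPM in Salv cKO libraries (-0.63 ± 0.17, adjusted p = 0.220). In complexes II to V 11 of 40 genes had a positive fold change, and the median was -0.13. The median of this second list was -0.06 with the same trends removed. Of the 2 lists, complex I thus kept more of its lean when the trends were removed.

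Among genes of translation the strongest single difference was a loss. Rpl29, a protein of the large ribosomal subunit (chromosome 9, 106429454 to 106431568, plus strand), measured 94.8, 112 and 189 CPM in control and 2.22, 2.01 and 1.43 CPM in Salv cKO libraries. It was 67.4-fold lower, and fell by 6.07 ± 0.41 on the log2 scale (adjusted p = 6.91e-07). Over the 3 libraries of each group that was 2542 counts in control and 40 in Salv cKO. Rpl29 has 25 near-identical copies in the annotation, and the sum of gene and copies still fell by 4.63 (adjusted p = 6.84e-05). Of 77 cytosolic ribosomal protein genes tested Rpl29 alone passed, 11 had a positive fold change and the median was -0.20. Without control replicate 1 the median was -0.32, with 7 positive, and without control replicate 3 it was -0.13, with 21 positive. With trends on transcript length and GC content removed it was -0.14, with 19 positive. The next, Rps18, was 867 to 974 CPM in control and 625 to 666 CPM in Salv cKO libraries (-0.47 ± 0.14, adjusted p = 0.304). Dtd2, which clears wrongly charged tRNA, measured 6.92, 10.1 and 8.31 CPM in control and 1.77, 2.48 and 1.64 CPM in Salv cKO libraries. It fell by 2.09 ± 0.41 (adjusted p = 0.0188), and lost the call without control replicate 2 or 3 or Salv cKO replicate 1 or 3 (adjusted p up to 0.154).

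Fkbp10, Zcchc3, Tmem100 and Fbxo44 were among the other genes that fell. Fkbp10, a prolyl isomerase that helps to fold collagen in the endoplasmic reticulum, measured 27.1, 25.7 and 20.3 CPM in control and 9.64, 8.05 and 7.37 CPM in Salv cKO libraries. It fell by 1.53 ± 0.25 (adjusted p = 0.00287), whereas the fibroblast and matrix list had a median of -0.03 with 12 of 26 genes positive (0.21 with 19 positive without Salv cKO replicate 2). Zcchc3, a zinc finger protein that binds nucleic acid, measured 18.3, 15.9 and 14 CPM in control and 3.99, 4.95 and 1.64 CPM in Salv cKO libraries, a change of -2.15 ± 0.37 (adjusted p = 0.0054). Tmem100, a membrane protein known from endothelium (chromosome 11, 90030348 to 90036508), measured 4.47, 6.75 and 7.15 CPM in control and 0.886, 0.929 and 2.46 CPM in Salv cKO libraries, a change of -2.17 ± 0.46 (adjusted p = 0.0368). Endothelial markers had a median of -0.25 with 8 of 20 positive (-0.05 with 10 positive without control replicate 3), and summed to 1218 to 1579 CPM in control and 1252 to 1434 CPM in Salv cKO libraries. Their part in the Tmem100 value was not tested. Fbxo44, an F-box protein of a ubiquitin ligase, measured 7.35, 9.16 and 8.48 CPM in control and 1.77, 1.08 and 1.84 CPM in Salv cKO libraries. The change was -2.40 ± 0.49 (adjusted p = 0.0324), and it was lost when any 1 library was left out (adjusted p up to 0.189).

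Wdfy1, an endosomal adaptor, measured 39.4, 37.4 and 39.9 CPM in control and 13.0, 10.2 and 20.5 CPM in Salv cKO libraries (-1.43 ± 0.24, adjusted p = 0.0041). Dhrs7, a short-chain dehydrogenase, measured 79.7, 94.4 and 80.5 CPM in control and 30.6, 39.2 and 44.0 CPM in Salv cKO libraries (-1.17 ± 0.19, adjusted p = 0.0041). Pcp4l1, a small calmodulin-related protein, measured 89.4, 89.0 and 95.1 CPM in control and 44.8, 47.1 and 33.8 CPM in Salv cKO libraries (-1.12 ± 0.20, adjusted p = 0.00694). These 3 genes were close within each genotype, and each lost its call with only 1 library left out: Wdfy1 and Dhrs7 without Salv cKO replicate 1 (adjusted p = 0.0522 each) and Pcp4l1 without Salv cKO replicate 3 (adjusted p = 0.0683). Zfp945, a zinc finger gene, measured 23.4, 31.7 and 20.5 CPM in control and 5.32, 12.5 and 9.82 CPM in Salv cKO libraries (-1.46 ± 0.31, adjusted p = 0.0365). The long noncoding RNA Crnde measured 18.9, 17.0 and 22.1 CPM in control and 10.2, 5.11 and 7.78 CPM in Salv cKO libraries (-1.31 ± 0.28, adjusted p = 0.0381). Twf2, an actin-capping twinfilin, fell by 0.82 ± 0.18 (adjusted p = 0.0425), and Ccdc85b, which overlaps Fosl1, fell by 1.08 ± 0.23 (adjusted p = 0.0342). Zfp945, Crnde, Ccdc85b and Tmem100 each passed in 1 of the 6 fits without a library and Twf2 in 0, with adjusted p up to 0.271. The one library whose removal kept the call was Salv cKO replicate 1 for Crnde, replicate 2 for Zfp945 and Ccdc85b, and replicate 3 for Tmem100.

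Several differences lay between a gene and its processed copy rather than in their sum. Gm5900 (chromosome 7, 104949915 to 104950289) is a copy of Lamtor3, a scaffold of the lysosomal Ragulator complex. It measured 0.577, 0.600 and 1.66 CPM in control and 30.5, 16.6 and 40.5 CPM in Salv cKO libraries, a rise of 4.94 ± 0.56 (adjusted p = 0.000274). Lamtor3 itself measured 43.8, 38.4 and 33.4 CPM in control and 17.7, 33.4 and 11 CPM in Salv cKO libraries, and did not pass (-0.89 ± 0.35, adjusted p = 0.563). The copy thus held 1.3% to 4.7% of the counts of the pair in control and 33.1% to 78.6% in Salv cKO libraries, while the sum of both differed by 0.34 (adjusted p = 0.760).
Gm15920 (chromosome 5, 130188395 to 130188796), a copy of the complex I gene Ndufa12, measured 7.64, 7.35 and 4.82 CPM in control and 139, 177 and 244 CPM in Salv cKO libraries (4.81 ± 0.30, adjusted p = 4.45e-08). Ndufa12 measured 1007, 878 and 1115 CPM in control and 423, 553 and 721 CPM in Salv cKO libraries (-0.82 ± 0.19, adjusted p = 0.0635). Gm15920 held 0.4% to 0.8% of the pair in control and 24.2% to 25.3% in Salv cKO libraries, a share that hardly varied among the 3 Salv cKO libraries. The sum of the pair differed by -0.42 (adjusted p = 0.630).

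The letters that tell each copy from its gene are few, and are shown because reads from the rest of the aligned sequence cannot be told apart. Positions count from 1 at the first coding base of the gene, in transcripts of the GENCODE annotation of GRCm38. The capital is the base that differs. Over 375 aligned bases Lamtor3 and Gm5900 differ at 2 positions, C111T and G336A, and over 402 aligned bases Ndufa12 and Gm15920 differ at 2 positions, A147G and T426C.
Lamtor3 around position 111: attaaagtggctaaCgacagtgccccaga
Gm5900 at the same place: attaaagtggctaaTgacagtgccccaga
Lamtor3 around position 336: aaggagctagctccGttatttgaagaact
Gm5900 at the same place: aaggagctagctccAttatttgaagaact
Ndufa12 around position 147: gaagacaaatatggAaataaatactacga
Gm15920 at the same place: gaagacaaatatggGaataaatactacga
Ndufa12 around position 426: attcatgaatgggtTccaccttcgacacc
Gm15920 at the same place: attcatgaatgggtCccaccttcgacacc
Within the aligned bases, reads that miss these positions cannot be assigned to a member of the pair. The coding sequence of Ndufa12 is 450 bases long, so part of it has no counterpart in Gm15920. How the authors' counting treated such reads is not given in the sources used here. Whether the mice of each genotype carry the reference base at these positions was not tested.

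The mitochondrial gene mt-Nd3, a core subunit of complex I (mitochondrial genome, 9459 to 9806), and its nuclear copy Gm28438 (chromosome 1, 24612775 to 24613119, minus strand) mirrored each other. The gene had 5, 0 and 2 counts in control and 50, 63 and 78 counts in Salv cKO libraries, at 0.721, 0 and 0.333 CPM against 5.54, 9.75 and 16.0 CPM. It rose by 4.78 ± 0.71 (adjusted p = 0.00287). The copy measured 16.9, 18.2 and 19.8 CPM in control and 0.997, 1.08 and 2.05 CPM in Salv cKO libraries, and fell by 3.78 ± 0.36 (adjusted p = 2.60e-06). Gm28438 thus held 95.9% to 100% of the pair's counts in control and 10.0% to 15.3% in Salv cKO libraries, and the sum differed by -0.68 (adjusted p = 0.663). In total RNA of infarcted hearts nearly all counts of the pair lay in Gm28438 in both genotypes. Its mean there was 2143 CPM in control and 3220 CPM in Salv cKO, against 3.04 and 3.42 CPM for mt-Nd3. Over 345 aligned bases the pair differs at 1 position, T3C, in the start codon of the gene. Whether the mice of each genotype carry the reference base there was not tested, so a change of mt-Nd3 beyond the pair was not shown.
mt-Nd3 from position 1: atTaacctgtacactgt
Gm28438 at the same place: atCaacctgtacactgt
Of 10 tested genes of the mitochondrial genome mt-Nd3 alone passed. The median over these 10 was 0.21, and between 0.07 (without Salv cKO replicate 1) and 0.49 (without control replicate 3) with 1 library left out.

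**Figure D3:**
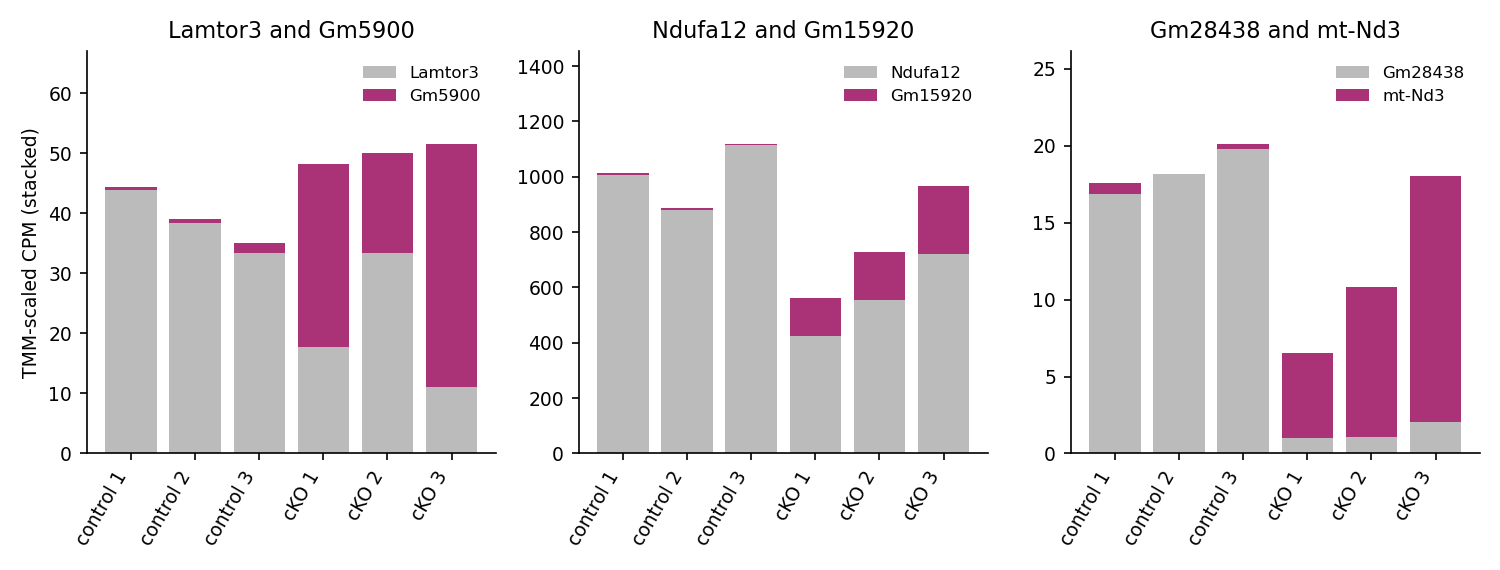
Stacked TMM-scaled CPM of 3 pairs of near-identical genes in each of the 6 TRAP libraries of infarcted hearts: Lamtor3 with Gm5900, Ndufa12 with Gm15920 and Gm28438 with mt-Nd3. In each pair the purple member is near 0 in the 3 control libraries and makes up a large share of the bar in the 3 Salv cKO libraries.

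Of the other predicted genes, Gm6969 (4.87 ± 0.88, copy of Cox7a2l), Tdpx-ps1 (4.07 ± 0.58, copy of Prdx2), Gm8520 (2.35 ± 0.36) and Gm10653 (2.18 ± 0.45), both copies of Rps2, were higher, and Gm13139 (-2.99 ± 0.62) was lower. Eif3j2, a near-identical copy of the initiation factor gene Eif3j1, measured 1.73, 2.25 and 3.99 CPM in control and 13.3, 9.60 and 10.6 CPM in Salv cKO libraries, a rise of 2.08 ± 0.39 (adjusted p = 0.016). Summed with their copies these differences were 0.04 for Gm6969, -0.19 for Tdpx-ps1, -0.28 for Gm8520, -0.33 for Gm10653, 0.04 for Gm13139 and -0.20 for Eif3j2. None of the sums passed, so a change of these 6 genes beyond their families was not shown. Eif3j2 lost its own call without control replicate 1 or 2 or Salv cKO replicate 1 (adjusted p up to 0.145), Gm6969 and Gm13139 each lost theirs in 4 of the 6 fits without a library (adjusted p up to 0.124 and 0.246) and Gm10653 in all 6 (adjusted p up to 0.257). AA465934 (chromosome 11, 83291699 to 83294632) was higher by 3.02 ± 0.42 (adjusted p = 0.00287), at 2.02, 6.15 and 7.98 CPM in control and 32.6, 54.3 and 43.6 CPM in Salv cKO libraries.

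The sham libraries show whether the same genes differed between the genotypes in uninjured hearts. Their fold changes come from other libraries than those of infarcted hearts. All TRAP libraries were fitted together, however, so the infarction and sham tests shared the filter and the estimate of spread. A gene that passed in both was therefore not checked in a separate fit. In sham TRAP RNA 291 of 11393 genes passed (2.55%), 155 higher (1.36%) and 136 lower (1.19%). Sham control replicate 2 and sham Salv cKO replicate 3 held 569 and 662 counts of Y chromosome genes. The other sham libraries held at most 9 and the TRAP libraries of infarcted hearts at most 5. Fewer genes passed after sham without these 2 libraries, or with the 2 sham groups fitted alone, as given further on. Of the 38 genes that passed after infarction, all 38 had the same sign after sham, and 25 also passed there. The genotype difference was 4.88 after sham for Dvl3, 2.67 for Cuedc1, 2.28 for Sorl1, 2.09 for Pygl, 2.0 for Park2 and -8.09 for Rpl29 (adjusted p of 3.81e-06, 0.00232, 3.81e-06, 0.00127, 0.00131 and 7.56e-07). Rpl29 was 78.4 to 183 CPM in sham control and 0.331 to 0.515 CPM in sham Salv cKO libraries.

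Genes that passed after infarction and not after sham numbered 13. Fkbp10 was -1.53 after infarction and -0.37 after sham (adjusted p = 0.454), Zfp945 was -1.46 and -0.07 (0.927), and Slc27a1 was -1.26 and -0.44 (0.382). Arntl was 1.89 after infarction and 0.39 after sham (adjusted p = 0.661), with 3.22, 3.0 and 3.76 CPM in sham control and 4.02, 4.96 and 4.38 CPM in sham Salv cKO libraries. Tmem100 was -2.17 after infarction and -0.66 after sham (adjusted p = 0.421). The test of the difference itself was at an unadjusted p of 0.00318 for Fkbp10, 0.00394 for Zfp945, 0.0352 for Slc27a1, 0.0169 for Arntl, 0.0235 for Tmem100 and 0.00888 for Cuedc1. None of these passed the adjustment over all genes. Across all 11393 genes 0 (0%) passed the interaction of genotype with surgery in edgeR, with 1435 at an unadjusted p below 0.05, a smallest adjusted p of 0.0796 and 96 genes in DESeq2. Surgery was not the only difference in this interaction, since the 2 TRAP libraries high in Y chromosome counts were both sham.

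In total RNA of whole infarcted hearts 33 of 12945 genes passed (0.255%), 24 higher (0.185%) and 9 lower (0.0695%). Of the 36 genes of the TRAP comparison that could be tested there, 28 had the same sign and 4 passed: Pygl, Eif3j2, Gm6969 and Tdpx-ps1. Pygl had nearly the same difference in each comparison, 2.13 in TRAP RNA after infarction, 2.09 after sham and 2.12 in total RNA (adjusted p = 0.00409), where it rose from a mean of 5.10 to 22.4 CPM. Rpl29 was at 21.7, 18.5 and 21.7 CPM in control and 34.7, 28.2 and 14.7 CPM in Salv cKO total RNA, a difference of 0.33 (adjusted p = 0.592). Dvl3 was at 14.1, 15.3 and 16.0 CPM in control and 14.5, 19.5 and 9.97 CPM in Salv cKO total RNA, a difference of -0.04 (adjusted p = 0.957). In both genes total RNA gave similar levels in both genotypes, and the control TRAP level of Dvl3 and the Salv cKO TRAP level of Rpl29 stood far below it, although the CPM of the 2 fractions were scaled separately. Park2 was at 7.95 to 9.05 CPM in control and 6.44 to 8.13 CPM in Salv cKO total RNA (-0.24, adjusted p = 0.670).

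The difference between the fractions was tested in its own fit over the 12 libraries of infarcted hearts, in which 57 of 13267 genes passed (0.43%), 19 higher (0.143%) and 38 lower (0.286%) in TRAP RNA. Of the 38 genes, 9 passed it. Among them the genotype difference in TRAP RNA minus that in total RNA was 4.69 for Dvl3, 3.72 for Cuedc1, 1.64 for Sorl1, -3.15 for Fbxo44 and -6.43 for Rpl29 (adjusted p of 8.22e-06, 0.000236, 0.0233, 0.0107 and 4.72e-08). Park2, at 1.67, did not pass (adjusted p = 0.0852). Tef fell by a similar amount in total RNA (-0.82, adjusted p = 0.208), where it measured 299, 367 and 255 CPM in control and 149, 144 and 227 CPM in Salv cKO libraries. Per1 passed in total RNA with a difference of -1.62 (adjusted p = 0.00329). Arntl in total RNA was at 3.63, 4.41 and 5.36 CPM in control and 12.3, 12.1 and 6.13 CPM in Salv cKO libraries (1.21, adjusted p = 0.173). The clock genes Arntl, Tef and Per1 had the same sign in both fractions after infarction.

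**Figure D4:**
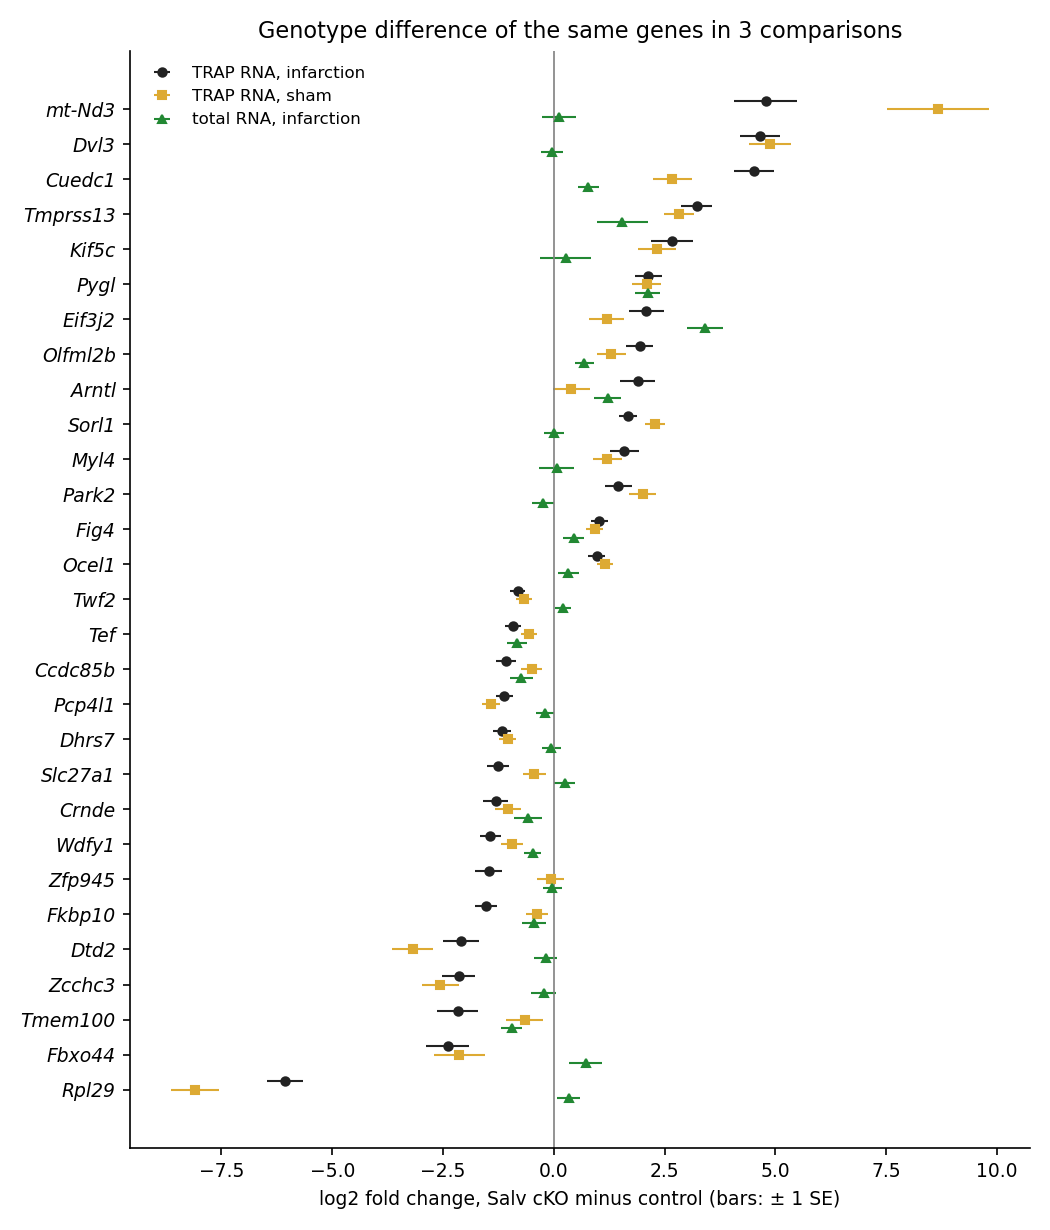
Log2 fold change, Salv cKO minus control, with bars of 1 SE, for the same 29 genes in TRAP RNA after infarction (circles), in TRAP RNA after sham (squares) and in total RNA after infarction (triangles). Circles and squares lie on the same side of 0 for every gene, while the triangles of Dvl3 and Rpl29 sit near 0 and that of Pygl lies with the other 2.

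Median fold changes of the tested members of a list differed in sign between the fractions in several cases. Cytosolic ribosomal protein genes were at -0.20 in TRAP RNA after infarction, -0.14 after sham and 0.77 in total RNA. Complex I genes were at -0.17, 0.06 and 0.64. The clock list was negative in each, at -0.34, -0.45 and -0.49. Epicardial markers, of which 8 of 12 were tested, were at -0.62, 0.37 and 0.02. The first of these was -0.37 without control replicate 3. In TRAP RNA after infarction 5 of the 8 were lower at an unadjusted p below 0.05, against 3.65% of all genes tested, and over all 12 in the fit without a filter 4 had a positive fold change (median -0.58). The 8 summed to 769 to 1014 CPM in control and 644 to 705 CPM in Salv cKO libraries. Erythroid markers, of which 5 of 9 were tested, summed to 213 to 351 CPM in control and 124 to 205 CPM in Salv cKO libraries. Their median was -0.84 with 0 of the 5 positive, and -0.55 without control replicate 1. Over the 8 erythroid markers with a count, in the fit without a filter, 2 had a positive fold change and 0 were lower at an unadjusted p below 0.05 (median -0.59). The part of these other cells in the lists above was not tested.

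**Figure D5:**
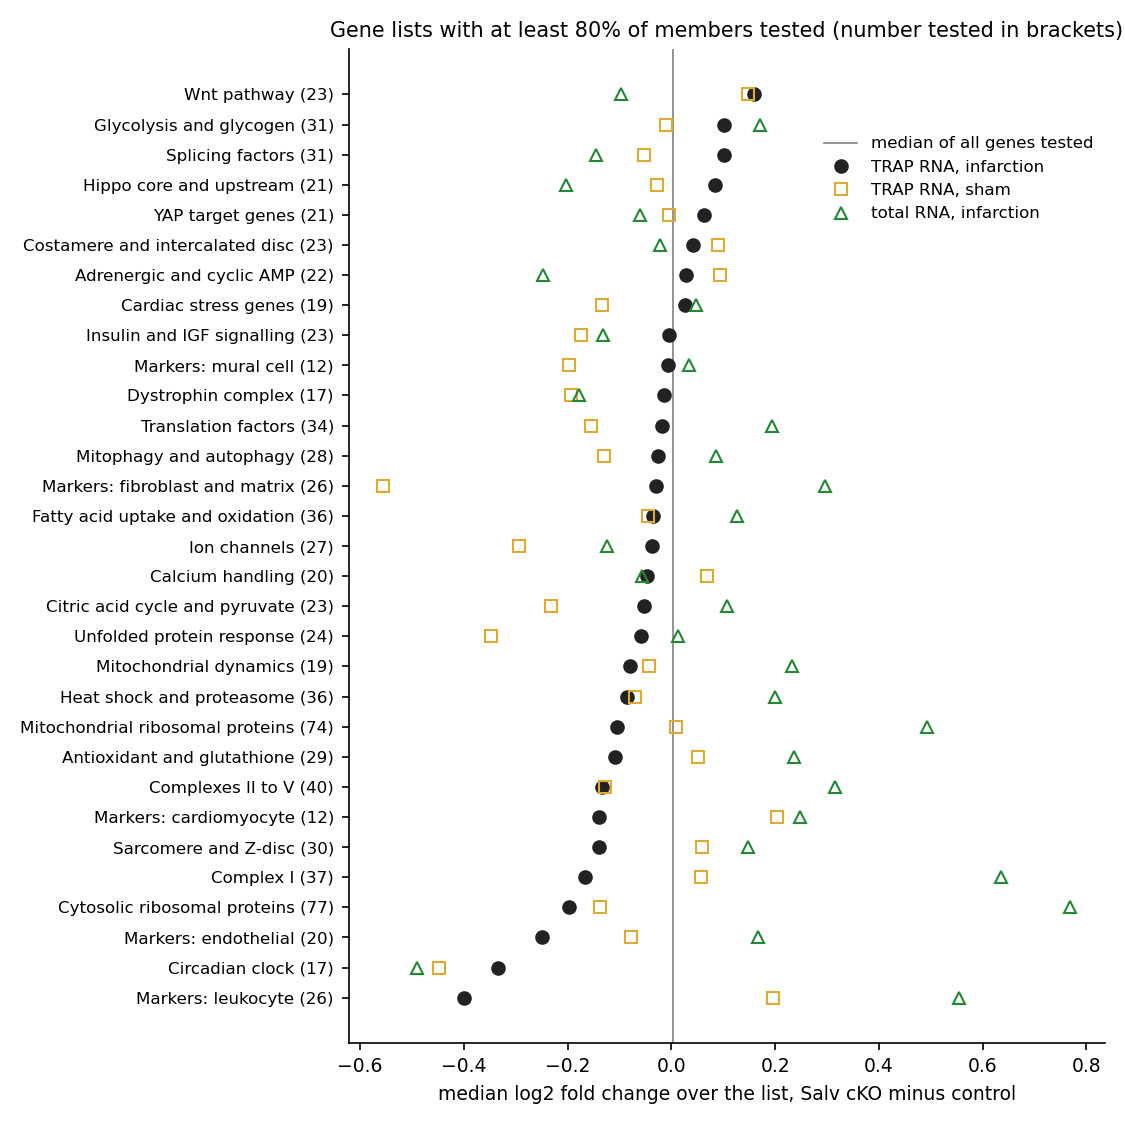
Median log2 fold change, Salv cKO minus control, of each gene list with at least 80% of its members tested, in TRAP RNA after infarction (filled circles), in TRAP RNA after sham (open squares) and in total RNA after infarction (open triangles), with the number of genes tested in TRAP RNA in brackets. The grey line is the median of all genes tested. Among filled circles the Wnt pathway lies highest, at 0.16, and leukocyte markers lowest, at -0.40.

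Just outside the threshold, the genes of ordinary symbol nearest to it were, on the lower side, Cngb3 (-1.97, adjusted p = 0.0522), Grin2c (-4.03, 0.0614), Ndufa12 (-0.82, 0.0635), Pccb (-0.80, 0.0672), Arhgef19 (-1.05, 0.0774) and Gcnt1 (-1.74, 0.0897). On the higher side they were Mau2 (1.56, adjusted p = 0.0859), Acta2 (1.0, 0.0859), Prune2 (1.17, 0.102), Nfil3 (1.27, 0.102), Hal (3.95, 0.111) and Dffa (0.71, 0.125). Acta2, the smooth muscle actin that is also expressed in immature cardiomyocytes, measured 32.7, 36.6 and 43.1 CPM in control and 104, 66.9 and 53.6 CPM in Salv cKO libraries. Mural cell markers, which include Acta2, had a median of -0.01 with 6 of 12 positive. On chromosome 12, which carries Sav1, lay 4 of the 38 passing genes, against 3.39% of genes tested. That was 4 of 384 tested genes there, and chromosome 9, without Sav1, held 6 of 651. On chromosome 12 Pygl lies 0.204 Mb from Sav1, Dhrs7 2.66 Mb, Dtd2 18 Mb and Gm6969 45.3 Mb. Sequence that travels with a targeted allele near Sav1 and an effect of the loss of Salvador cannot be told apart for these genes.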

How the data were processed

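The authors deposited gene counts of 18 libraries (Ion Proton), and the sample files hold the same values as the series table. Per the submitters' processing notes STAR 2.5, mm10 and DESeq2 were used. For the annotation, the counting tool and the use of strand, the status is the same: not given in the sources used here. The deposited counts were tested with edgeR 4.0.16 (TMM, filterByExpr, robust quasi-likelihood fit, two-sided) in R 4.3.3. The 12 TRAP libraries were fitted together for infarction, sham and their interaction, the 6 total libraries alone, and the 12 infarction libraries for the interaction with fraction. All genes past the threshold with ordinary symbols were named, with the 6 nearest outside it in each direction, 8 set genes and the list members of smallest p. Members and gene lists were chosen with earlier results of these data known. Copies shared at least 95% identity over 200 transcript bases. The fit was tested on simulated counts. Alternatives were DESeq2 1.42.0, other scaling, no filter, replicate block, equal depth (3240871 counts), trends removed, summed copies and libraries left out.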

Additional observations from a re-analysis of the deposited data

Results flagged for a closer look

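For 16 of the genes named here the genotype difference in TRAP RNA of infarcted hearts differed from that in total RNA of infarcted hearts, by edgeR's quasi-likelihood interaction test with Benjamini-Hochberg adjustment over 13267 genes, of which 57 passed. The values are the log2 difference in TRAP RNA minus that in total RNA. It was higher in TRAP RNA for Dvl3 (4.69), mt-Nd3 (4.66), Zmym6 (3.74), Cuedc1 (3.72), Prune2 (1.86), Mau2 (1.80) and Sorl1 (1.64). It was lower for Rpl29 (-6.43), Gm13139 (-4.84), Gm28438 (-4.41), Hba-a1 (-3.72), Fbxo44 (-3.15), Arhgef19 (-2.41), Rpp25l (-2.27), Mrps36 (-2.13) and Slc27a1 (-1.53). Zmym6 was not tested in the TRAP comparison and had 0, 1 and 1 counts in control and 12, 10 and 5 in Salv cKO TRAP libraries. Hba-a1, Mrps36, Rpp25l and Arhgef19 had positive differences in total RNA (2.22, 1.67, 1.62 and 1.32) and negative ones in TRAP RNA (-1.45, -0.44, -0.62 and -1.05). In edgeR's test only Mrps36 passed in total RNA (adjusted p of 0.142, 0.00873, 0.201 and 0.142 in that order). None passed in TRAP RNA (0.655, 0.859, 0.304 and 0.0774), although Hba-a1 did with the 2 groups fitted alone (0.00616). Of these, Hba-a1, an alpha globin gene, measured 101, 78.5 and 56.4 CPM in control and 21.3, 27.9 and 37.7 CPM in Salv cKO TRAP libraries. The largest adjusted p among the genes that also passed in TRAP RNA was 0.0496, for Slc27a1.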

How the results depend on the processing

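The number of passing genes after infarction, 38, was 72 with DESeq2, 106 with no filter, 58 with the 2 groups fitted alone and 22 to 35 with 1 library left out. The 291 genes after sham became 602, 651, 84 without the 2 sham libraries with Y chromosome counts, 127 with 2 groups alone and 104 to 378 with 1 library left out. The interaction with surgery, 0, became 96 with DESeq2, 160 with no filter, 3 with length and GC trends removed and 0 to 18 with 1 library left out. The 33 genes in total RNA became 149, 363, 59 with the replicate block and 17 to 45 with 1 library left out. The 57 genes that differed between fractions became 273, 302, 31 with the replicate block, 20 with trends removed and 16 to 140 with 1 library left out. All 38 genes were among those called by DESeq2, and 37 among the 39 called with the replicate block, which lost Arntl (adjusted p = 0.059). Equal depth lost Park2, Crnde, Tmem100, Dtd2, Fbxo44, Gm10653 and Gm13139 (adjusted p from 0.0673 for Crnde to 0.338 for Fbxo44). Removing trends lost Park2, Crnde, Ccdc85b and Twf2 (0.0543 for Ccdc85b to 0.12 for Twf2), and fitting the 2 groups alone lost Park2 (0.0537) and Tmem100 (0.0505). The labels do not say whether replicate numbers pair libraries. In TRAP RNA after infarction, deviations of same-numbered control and Salv cKO libraries correlated at 0.03, 0.04 and 0.11. Those of differently numbered libraries correlated at -0.10 to 0.06. So few correlations cannot decide whether the libraries are paired. Without a filter low genes entered the fit, and with libraries left out the spread was estimated from fewer of them. The cause of the shifts in these numbers was not tested. Signs reversed on summing copies for Eif3j2 (-0.20), Gm10653 (-0.33), Gm13139 (0.039), Gm15920 (-0.42), Gm8520 (-0.28), Tdpx-ps1 (-0.19) and mt-Nd3 (-0.68). Among genes near 0, Nppb was 0.011 with trends removed and -1.02 to 0.24 with 1 library left out (0.24 and 0.16 without Salv cKO replicate 2 or 3). Sav1 was -0.30 to 0.029 (the latter without Salv cKO replicate 3). Yap1 was -0.089 with trends removed and -0.23 to 0.22 with 1 library left out (-0.10 without control replicate 3, -0.23 without Salv cKO replicate 1). Genes at a few CPM rest on few counts. With 3 TRAP libraries a group no change below 1.76-fold passed, and larger changes in other genes also did not pass.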

Other observations

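In TRAP RNA of infarcted hearts none of the genes tested in 7 further groups passed in edgeR's quasi-likelihood test or in DESeq2. At an unadjusted p below 0.05 there were 2 ion channel, 2 calcium handling, 5 adrenergic, 1 dystrophin complex, 4 heat shock and proteasome and 2 mitochondrial ribosomal protein genes, and 0 in the costamere list, against 7.36% of all genes tested. Of 27 ion channel and connexin genes 12 had a positive fold change (median -0.04). Gja1, the main ventricular gap junction protein, measured 183, 137 and 168 CPM in control and 299, 229 and 239 CPM in Salv cKO libraries (0.65 ± 0.22, adjusted p = 0.422). Of 20 calcium handling genes 5 were positive (median -0.05), and the sodium-calcium exchanger Slc8a1 measured 0.96 ± 0.38 (adjusted p = 0.557). The calcium pump gene Atp2a2 overlapped between the groups, at 0.23 ± 0.17 (adjusted p = 0.882).

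Of 22 adrenergic and cyclic AMP genes 12 were positive (median 0.03). Ppp1r1a, an inhibitor of protein phosphatase, measured 7.21, 6.30 and 5.16 CPM in control and 1.99, 1.55 and 1.84 CPM in Salv cKO libraries (-1.78 ± 0.47, adjusted p = 0.166), and after sham its difference was 0.10. Costamere and intercalated disc genes were positive in 18 of 23 cases with a median of 0.04, and dystrophin complex genes in 8 of 17 with a median of -0.01. Heat shock and proteasome genes were positive in 12 of 36 cases (median -0.08, and 0.02 with 20 positive without control replicate 3), with Hspa8 at -0.45 ± 0.16 (adjusted p = 0.458). Mitochondrial ribosomal protein genes were positive in 19 of 74 cases (median -0.11, and -0.07 without Salv cKO replicate 3), against 50.5% positive over all genes. With trends on transcript length and GC content removed 26 were positive and the median was -0.04. The next values are without that removal. Their median was 0.01 after sham and 0.49 in total RNA.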
